A study of Homo sapiens with 4 samples.

Results

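BRCA1 and 8 other genes of homologous recombination (BRCA2, BARD1, PALB2, BRIP1, RAD51C, XRCC2, ATM and RBBP8) were examined in cells given a miR-335 mimic. Every probe of the array that was not a control and carried one of these 9 gene names was kept, which gave 11 of the 50599 probes of the array (9 of 36337 gene names). ATM had 3 probes and the other genes had 1 probe each. To learn which transcripts respond to miR-335, 100 pmol of a mimic of it (a man-made duplex that stands in for the natural microRNA) was put into GIST-T1 cells, an established line from a human gastrointestinal stromal tumor (GIST), by electroporation. The control cells received the same amount of mirVana miRNA mimic Negative Control #1. Total RNA was taken 48 h later, labeled with 1 dye and hybridized to human Agilent arrays, with 2 arrays per group. Both groups were the same cell line in the same medium, and cells without transfected RNA were not analysed here. One line of the mimic samples' description names miR-34a, while their title and transfection label name miR-335, which was followed here. The labels do not say whether the replicates came from separate cultures, so the p-values below measure only the spread between these arrays, which may be technical.

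Homologous recombination repairs a broken DNA molecule by copying an intact sister molecule, mostly in the S and G2 phases. ATM is a kinase that is activated at breaks, RBBP8 (CtIP) starts the trimming of the broken ends, and BRCA1 with its partner BARD1 promotes that trimming and the later steps. PALB2 joins BRCA1 to BRCA2, which acts at the trimmed ends before strands are exchanged. RAD51C and XRCC2 assist that step, and BRIP1 is a helicase that binds BRCA1. BRCA1 and BARD1 proteins stabilize each other as a ring-finger ubiquitin ligase. Earlier work in breast cancer cells linked miR-335 with the regulation of BRCA1, and the arrays allowed the transcripts of BRCA1 and its partners to be compared in a stromal tumor line.

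The sequence of the transfected microRNA decides which short matches can be sought in a transcript. The labels do not state which arm the mimic carried. The mature sequences of both arms in RefSeq (GRCh38.p14, chr7:130496126-130496148 and chr7:130496162-130496183, plus strand) are shown here with the seed, bases 2 to 8, in capitals.
hsa-miR-335-5p: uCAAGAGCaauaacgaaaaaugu
hsa-miR-335-3p: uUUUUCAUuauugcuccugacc
The DNA letters that pair with the 5p seed, GCTCTTG, were found in the sense sequence of 0 of the 11 member probes and of 221 of all 50599 probes (0.437%). The letters for the 3p seed, ATGAAAA, were also found in 0 of the 11, against 1.22% of all probes. A shorter 3p match followed by A, TGAAAAA, was in 1 member probe, that of PALB2, against 1.28% of all probes. A probe covers only 60 bases of a transcript, so an absent match says only that these letters are not in these windows.

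The probes whose sequences are shown are those of BARD1 and BRIP1, which had the lowest values relative to the control among the members, and of RAD51C and PALB2, which were close to the control level. Whether each probe lies in a coding or an untranslated exon was not analysed here. The coordinates are those of the array files (hg19).
BARD1 (chr2:215593660-215593719, minus strand): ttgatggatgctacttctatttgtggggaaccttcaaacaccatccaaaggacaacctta
BRIP1 (chr17:59760908-59760967, minus strand): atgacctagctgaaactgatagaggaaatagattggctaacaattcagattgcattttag
RAD51C (chr17:56772439-56772498, plus strand): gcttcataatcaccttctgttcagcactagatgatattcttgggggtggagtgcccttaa
PALB2 (chr16:23625336-23625395, minus strand): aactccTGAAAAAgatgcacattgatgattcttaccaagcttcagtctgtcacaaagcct
The capitals in the PALB2 probe mark the letters that pair with the 3p arm, and the PALB2 signal overlapped between the groups.

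All values below are processed intensities in scanner units, or log2 of that intensity minus the 75th percentile of the same array, called the log2 signal. The 75th percentile lay between 178.8 and 189.7 units, and 40.3% to 41.9% of probes were well above background. Of the 50599 probes, 20328 were tested, namely those detected above background on the pair of arrays of one group or the other. The genes that define GIST (KIT, ANO1, ETV1, PRKCQ, CD34 and PDGFRA) were well above background on all 4 arrays in 6 of 6 cases. All 6 had a change below 0, as had 8549 of 15454 tested genes, and none was called. KIT, the receptor kinase that drives most GISTs, was lowest at -0.33 (limma adjusted p = 0.0512). The summed signal of all 6, in multiples of the 75th percentile, was 254.3 to 260.8 (mimic arrays) and 299.8 to 303.1 (control arrays). KIT had the highest log2 signal of the 6 (mean 7.16 with the mimic and 7.49 with the control), so it weighs most in that sum. Of 7 markers of epithelial, blood, endothelial and smooth muscle cells, CDH1, PTPRC, CD3E, PECAM1 and MYH11 were not well above background on any array, and EPCAM and DES were. The summed signal of those 7 markers, in multiples of the 75th percentile, was 1.78 to 1.92 on the mimic arrays and 2.28 to 2.56 on the control arrays, and the part of either sum in the results was not tested. All arrays were scanned once on 1 slide, the control arrays at positions 1 and 2 and the mimic arrays at positions 3 and 4, so position and group cannot be told apart.

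BARD1 was the only member that passed the adjusted threshold, and it was lower with the mimic. BRCA1, its partner, differed by 0.11 on the log2 scale in the other direction and was not called. All 9 genes had a tested probe, and all 9 of these probes were well above background on 4 arrays. By limma with Benjamini-Hochberg adjustment over all tested probes (threshold 0.05), 1 of the 9 was called lower, where 1.15% of all tested probes were (233), and 0 were called higher, where 1.47% were (299). At an unadjusted p under 0.05 the members counted 2 lower (BARD1 and BRIP1) and 2 higher (XRCC2 and BRCA2), beside 13.7% and 11.7% of all tested probes. The values of the groups did not overlap for 3 lower and 4 higher members, beside 32.5% and 27.1% of all tested probes. With 1 member called, these counts are given as a description. The median log2 change (mimic minus control) of the 9 probes was 0.04, and that of all tested probes was -0.01.

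**Figure D1:**
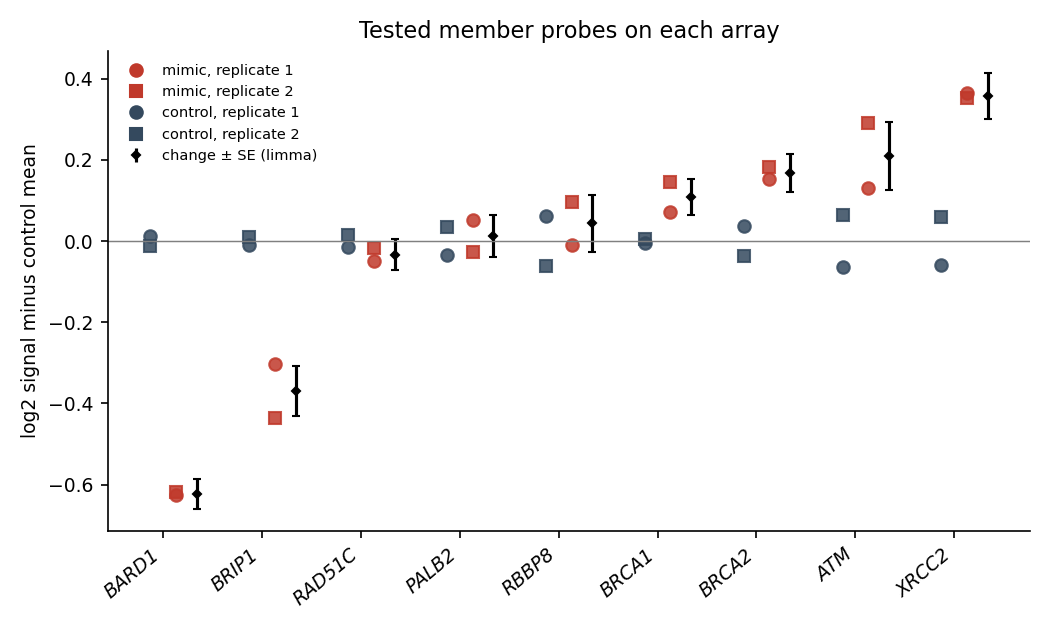
Log2 signal of the 9 tested member probes on each array, minus the control mean of the probe (vertical axis), for 2 mimic arrays (red) and 2 control arrays (blue); diamonds and bars are the change and its standard error by limma. Both BARD1 mimic values lie near -0.62, BRIP1 is the next lowest, XRCC2 is the highest at 0.36, and the mimic and control values of PALB2 and RBBP8 overlap.

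BRCA1, the scaffold of the break repair complexes, was printed as 10 spots of a single probe (chr17:41196422-41196481, minus strand, hg19). Its median processed intensity was 426.2 and 432.4 on the mimic arrays and 376.7 and 384.0 on the control arrays. The log2 signal was 1.16 and 1.23 with the mimic and 1.08 and 1.09 with the control, so both mimic arrays lay above both control arrays. The change was 0.11 ± 0.05 (SE, n = 2 per group), with a 95% interval from -0.02 to 0.24 and an adjusted p of 0.25 by limma. This corresponds to a signal 7.78% higher, and 78.4% of the tested probes had a change as low or lower. The interval includes 0, so a difference of BRCA1 between the groups was not shown here. Repeat spots on an array had an SD of 0.06 to 0.08 on the log2 scale, and the mimic arrays differed from each other by 0.07, which is of the order of the change itself. Spots of 1 array share a sample and are not replicates.

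BARD1, the obligate partner of BRCA1, was measured by 1 spot. Its processed intensity was 363.6 and 352.7 on the mimic arrays and 534.0 and 532.6 on the control arrays. The groups were far apart, with log2 signals of 0.94 and 0.95 against 1.58 and 1.55. The change was -0.62 ± 0.04 (SE, n = 2 per group), with a 95% interval from -0.73 to -0.51 and a limma adjusted p of 0.0346, a signal 0.650 times that of the control. Of all tested probes, 1.21% had a change as low or lower. BARD1 was also the only member over 1.5-fold lower, a criterion without a test that 1.47% of all tested probes met. It was called under 8 of 14 alternative settings and was lower under all 14. It was not called when any single array was left out (adjusted p 0.143 to 0.196 by limma, with changes of -0.64 to -0.61), nor without the filter on dim probes (adjusted p = 0.411).

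Because the partners were measured on the same arrays, the difference between their signals is not altered by a single scale factor per array. Relative to BRCA1, and with the control mean set to 0, BARD1 was at -0.70 and -0.76 on the mimic arrays and at 0.02 and -0.02 on the control arrays. The BARD1 change thus lay -0.73 from the BRCA1 change, a ratio of 0.603. The same difference was -0.48 for BRIP1, -0.14 for RAD51C and 0.25 for XRCC2, and in these 3 the groups did not overlap. For BRCA2, PALB2, ATM and RBBP8 the groups overlapped. The share of all probes that lie apart relative to BRCA1 was not computed. On the log2 signal itself, 32.5% of tested probes were apart on the lower side and 27.1% on the higher side. Such a ratio describes the relative change of a pair of transcripts. It was not tested here and does not say which of them differed.

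BRIP1, the BRCA1-bound helicase, gave processed intensities of 118.1 and 103.9 with the mimic and 136.4 and 140.5 with the control. Both mimic arrays lay below both control arrays, though the mimic arrays differed from each other by 0.13 on the log2 scale. The change was -0.37 ± 0.06 (SE, n = 2 per group; limma adjusted p = 0.0815), which did not pass the threshold. It was -0.17 when the local background was modelled by normexp, a convolution of background and signal with an added offset of 50, and -0.44 to -0.30 when 1 array was left out. The BRIP1 change was called only under scaling to the spike-in RNAs and under a variance that follows intensity, 2 of the 14 alternatives.

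**Figure D2:**
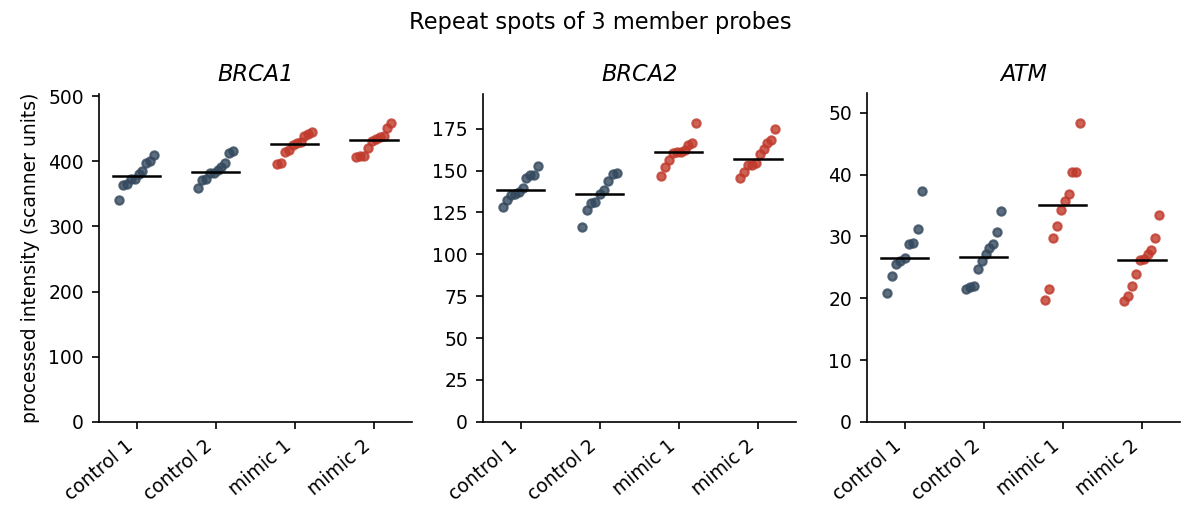
Processed intensity (scanner units, axes from 0) of each usable repeat spot of the BRCA1, BRCA2 and 10-spot ATM probes on the 2 control and 2 mimic arrays, with the median of the spots as a line. The BRCA1 medians are 376.7 and 384.0 on the control arrays and 426.2 and 432.4 on the mimic arrays, and the ATM spots spread widely near the background.

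BRCA2, which PALB2 brings to breaks, was also printed as 10 spots (chr13:32972996-32973055, plus strand, hg19), of which 9 were usable on the second control array. The median intensity was 161.0 and 157.2 with the mimic and 138.5 and 135.8 with the control. The groups did not overlap, and the log2 signals were -0.24 and -0.21 against -0.35 and -0.43. The change was 0.17 ± 0.05 (SE, n = 2 per group; limma adjusted p = 0.15), with an interval from 0.03 to 0.30 that is not adjusted for the number of probes. PALB2, the bridge between BRCA1 and BRCA2, had log2 signals of 0.32 and 0.24 with the mimic and 0.23 and 0.30 with the control. These overlapped, with a change of 0.01 ± 0.05 (SE, n = 2 per group) and a 95% interval from -0.14 to 0.16.

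XRCC2, which takes part in strand exchange, had the largest positive change of the members. Its processed intensity was 290.4 and 277.8 with the mimic and 204.1 and 225.2 with the control (chr7:152343931-152343990, minus strand, hg19). The groups were apart, and the change was 0.36 ± 0.06 (SE, n = 2 per group; limma adjusted p = 0.0772), a signal 28.2% higher. It did not pass the threshold, and 94.4% of tested probes had a change as low or lower. XRCC2 was called under normexp background correction and under the intensity trend. RAD51C, which acts at the same step, gave 6126 and 6041 units with the mimic and 5921 and 6131 with the control. On the log2 scale both mimic arrays were just below both control arrays, by -0.03 ± 0.04 (SE, n = 2 per group; limma adjusted p = 0.623). The 95% interval of the RAD51C change ran from -0.15 to 0.08.

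ATM, the break-activated kinase, was covered by 3 probes that differed in how well they were detected. The tested probe (chr11:108099942-108100001, plus strand, hg19) gave 330.9 and 356.5 units with the mimic and 272.5 and 303.0 with the control. The groups were apart, and the change was 0.21 ± 0.08 (SE, n = 2 per group; limma adjusted p = 0.24). A second probe (chr11:108236085-108236144) with 10 spots had medians of 35.04 and 26.24 units with the mimic and 26.54 and 26.61 with the control. Of its spots, 8 and 4 were well above background on the mimic arrays and 4 and 8 on the control arrays, so it was not tested, and its groups overlapped. The third ATM probe (chr11:108166338-108166397) was not well above background on any array, at 5.71 to 11.1 units. The positive ATM change therefore rests on 1 probe of 3. RBBP8, which begins the trimming of broken ends, had log2 signals of 1.49 and 1.60 with the mimic and 1.56 and 1.44 with the control (chr18:20606172-20606231, plus strand, hg19). These overlapped, and the change was 0.04 ± 0.07 (SE, n = 2 per group), with an interval from -0.16 to 0.25.

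The sign of the small changes depended on how the arrays were set to a common level. The scaling above holds the 75th percentile equal. After it, the 7 of 10 external spike-in RNAs that were well above background on all spots had a median log2 change of 0.19. Scaling to these spike-ins instead took the median over the tested probes from -0.01 to -0.20, and the calls became 9076 lower and 516 higher in place of 233 and 299. The members shifted with the rest. BRCA1 then had a change of -0.08 and BRCA2 of -0.02, BARD1, BRIP1 and RAD51C were called lower (-0.81, -0.56 and -0.22), and XRCC2 and ATM stayed above 0 (0.17 and 0.02). The cause of the spike-in difference was not tested. The order of the members did not depend on this choice, since it shifts every probe of an array equally.

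**Figure D3:**
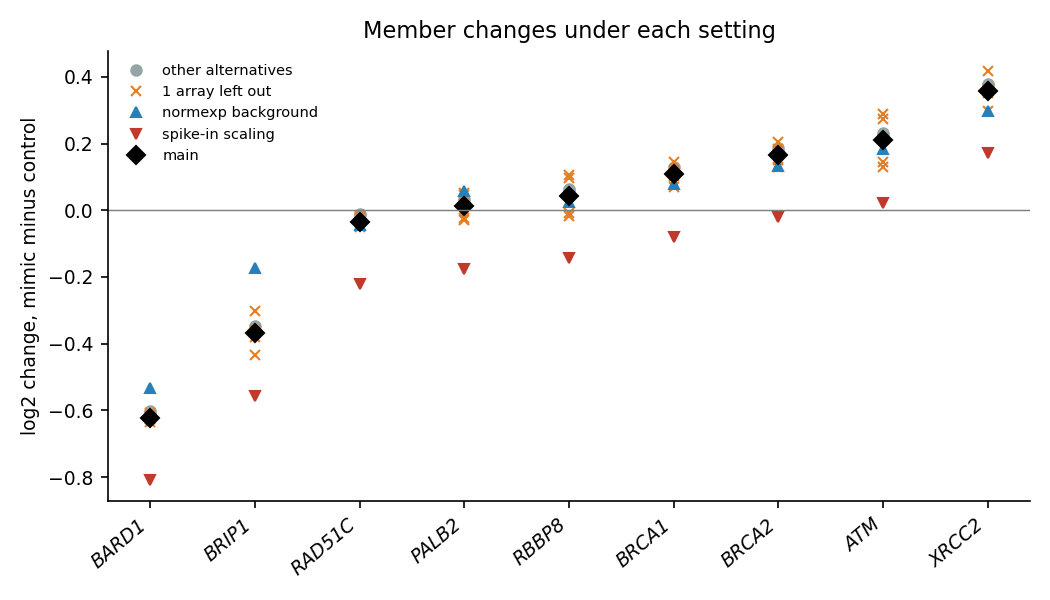
Log2 change (mimic minus control) of each tested member probe under the setting used in the text (black diamonds) and under the alternatives, with the 4 fits that leave out 1 array as crosses. BARD1 and BRIP1 are below 0 and XRCC2 and ATM above 0 at every point, and BRCA1 is above 0 except under spike-in scaling (-0.08).

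The members were set beside 66 tested genes of 6 other repair lists (67 listed, SWSAP1 not found by name), each by its brightest tested probe. Of the 66, 1 was called lower and 0 higher by limma, beside 1.34% and 1.42% of all tested genes read the same way. At an unadjusted p under 0.05 there were 2 lower and 16 higher, beside 14.6% and 11.3%, and the median change was 0.01 against -0.02 over 15454 tested genes. The called gene was FANCL, the ubiquitin ligase subunit of the Fanconi anemia complex, which repairs crosslinked DNA. FANCL had log2 signals of 2.72 and 2.73 with the mimic and 3.13 and 3.07 with the control, and fell by 0.37 ± 0.04 (SE, n = 2 per group; limma adjusted p = 0.0492). A second FANCL probe had a change of -0.36 (adjusted p = 0.0832). FANCL was lower under all 14 alternatives and called under 6 of them, and not when any single array was left out (adjusted p 0.156 to 0.204 by limma). BARD1 and FANCL were thus the called genes among the 75 tested repair genes, members included, when each is read by its brightest probe. FANCD2, which that complex ubiquitinates, had changes of 0.23 and 0.16 on its brighter probes, neither called. A dimmer FANCD2 probe passed the filter only through the mimic group and was well above background on 1 control array, so its higher call rests on a control value near background and is not counted.

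Among the lists, resection and resolution (the nucleases and helicases that trim ends and separate joined molecules) had 11 of 12 genes above 0, where 44.7% of all tested genes were, with a median of 0.13. Spike-in scaling lowers every change by 0.19, more than this median, so the sign of the list median depends on the scaling. None of the 12 was called by limma, and 6 had an unadjusted p under 0.05, all higher, where 11.3% of all tested genes were. The largest changes above 0 in the repair lists were those of XRCC3 (0.36, adjusted p = 0.0889), which works with RAD51C, GEN1 (0.34, adjusted p = 0.242), a nuclease that cuts joined molecules, and FAN1 (0.33, adjusted p = 0.0916), a crosslink repair nuclease. The probes of XRCC3 disagreed in size, since a second one, well above background on 4 arrays, had a change of 0.03 (adjusted p = 0.692). LIG3, a DNA ligase, had the lowest value (-0.62 ± 0.42 SE), but its control arrays were at -1.36 and -0.25 and overlapped the mimic arrays. NBN, a subunit of the break-sensing MRN complex, stood at -0.20 (adjusted p = 0.122). The BRCA1-A complex, which holds BRCA1 at breaks, had 4 of 5 genes above 0 and none called, with a median of 0.08. This median is also smaller than 0.19, so its sign depends on the scaling. BRCC3, counted above 0, had a change of 0.20 on its brightest probe and of 0.11 and -0.16 on its other tested probes, none called. Break sensing and signalling had 6 of 13 above 0 and end joining 5 of 11, with none called in these lists.

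**Figure D4:**
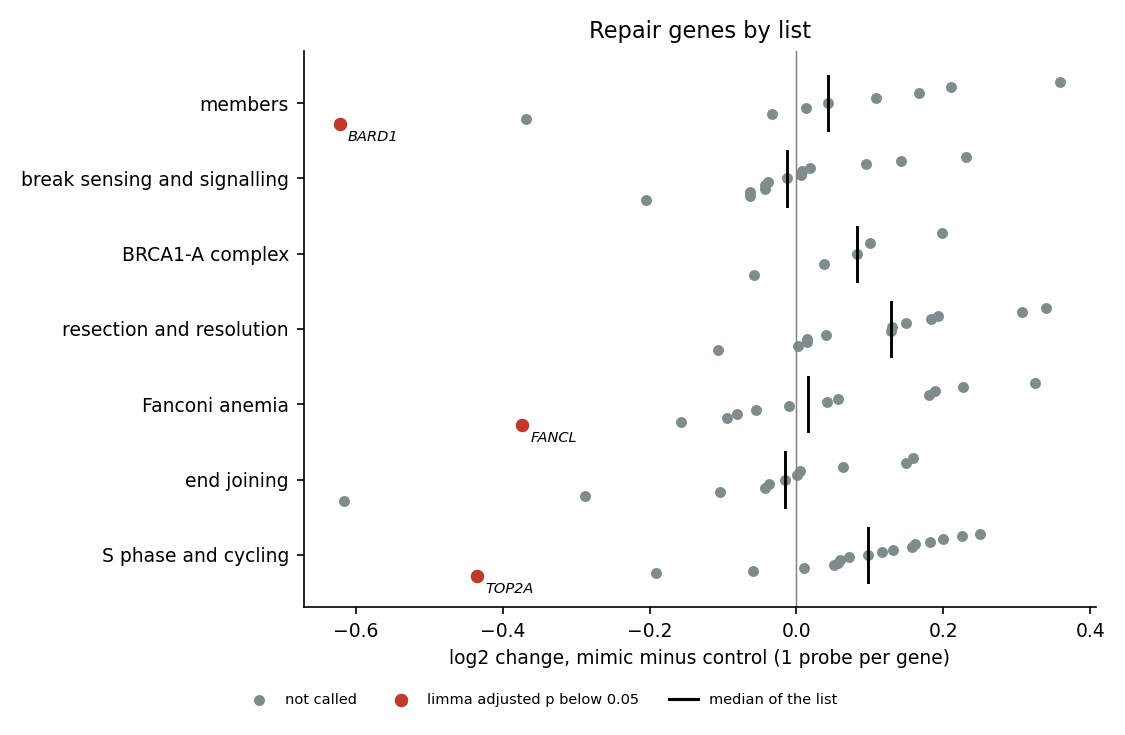
Log2 change (mimic minus control, horizontal axis) of each tested gene of the members, 5 of the 6 repair lists and the S phase list, 1 probe per gene, with the list median as a bar and called genes in red. BARD1, FANCL and TOP2A are the called genes, all lower. With the 75th percentile held equal, the resection and resolution list has 11 of 12 genes above 0.

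The repair genes whose values over the 4 arrays were nearest to those of BRCA1, each centred on its own mean, were FAM175A (abraxas, a BRCA1-A subunit), POLQ (a polymerase of alternative end joining) and XRCC1 (a scaffold of single-strand break repair). Their Euclidean distances on the log2 scale were 0.0490, 0.0558 and 0.0568, and their changes were 0.08, 0.16 and 0.06, none called. They were picked from 66 genes by this distance, so the nearness is a description and was not tested. Over all tested probes, the median absolute log2 difference between the arrays of a group was 0.06 in either group. Homologous recombination genes are expressed most in dividing cells. Of 17 S phase and cycling genes, 14 were above 0, where 44.7% of all tested genes were, with a median of 0.10. That median is also smaller than the 0.19 by which spike-in scaling lowers every change, so its sign depends on the scaling. In that list only TOP2A, a topoisomerase, was called, and it fell by 0.43 on the log2 scale (limma adjusted p = 0.039). CCNA2, the S phase cyclin A, had a change of 0.25 (adjusted p = 0.0716) and MKI67, a proliferation marker, of 0.23 (adjusted p = 0.147) on its brightest probe and of 0.07 and 0.40 on the others, none called. Their part in the changes of the members was not tested. Fewer cells of a kind and less RNA per cell cannot be told apart in these bulk samples.

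Of the genes that work in breast cells placed upstream of BRCA1, the transcription factor SP1 was the one that could be tested, with a change of -0.06 ± 0.06 (SE, n = 2 per group; limma adjusted p = 0.575). ID4, a repressor of transcription, and ESR1, the estrogen receptor with 3 probes, were not well above background on any array, and IGF1R, a growth factor receptor, was so on 1 array of each group. Their levels therefore have only a bound here.

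Of the 9 members, 7 start within 1000 bases of a gene that runs the other way on the opposite strand in RefSeq (GRCh38.p14). BRCA1 has such starts at 193 bases (NBR2) and, from another of its starts, at 82 (NBR1). BRCA2 has one at 145 bases (ZAR1L), PALB2 at 156 (DCTN5) and RBBP8 at 103 (RBBP8-AS1), while those of ATM (NPAT), RAD51C (IGBP1C) and BARD1 (SNHG31) lie at 429 to 546. The share of all genes with such a start was not computed, so the count of 7 is a description. The pairs with NBR2 and DCTN5 are shown because these neighbours were listed and tested on the arrays, as was NPAT, and the other neighbours were not examined. The intervals between the starts of these pairs are printed on the strand of the member, with CCAAT or its reverse complement ATTGG in capitals, a promoter element that was chosen after the values were seen.
BRCA1 and NBR2 (chr17:43125365-43125556): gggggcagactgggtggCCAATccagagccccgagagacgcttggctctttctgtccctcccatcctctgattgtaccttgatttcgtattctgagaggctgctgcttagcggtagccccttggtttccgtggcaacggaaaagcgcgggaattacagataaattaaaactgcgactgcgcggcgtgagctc
PALB2 and DCTN5 (chr16:23641311-23641465): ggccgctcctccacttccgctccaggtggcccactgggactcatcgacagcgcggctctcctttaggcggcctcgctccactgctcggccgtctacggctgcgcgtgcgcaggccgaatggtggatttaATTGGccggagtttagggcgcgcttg
NBR2, a noncoding RNA gene, had log2 signals of -0.36 and -0.28 with the mimic and -0.44 and -0.57 with the control, a change of 0.18 ± 0.07 (SE, n = 2 per group; limma adjusted p = 0.215). The groups of NBR2 and of BRCA1, on the other side of the interval, did not overlap, and neither was called. Of all tested probes, 27.1% were apart on the higher side, and of the 3 tested neighbours 1 was. DCTN5, a dynactin subunit, had a change of 0.01 ± 0.04 (SE), beside 0.01 for PALB2. NPAT, a histone gene activator next to ATM, had a change of -0.04 with control arrays at -2.26 and -1.57. TEX14, a gene near RAD51C, was not well above background on any array. The element CCAAT, on either strand, was in 5 of the 13 start regions (300 bases) of the members, where 34.6% of 35116 promoters hold it. The start regions of ATM overlap each other, as do those of RAD51C, so the 13 are not separate promoters. Counted by gene, CCAAT was in 4 of 9 and GGGCGG in 5 of 9. By region, GGGCGG was in 6 of the 13, where 45.0% of promoters hold it. The E2F-type letters TTTGGCGC or TTTCGCGC were in 0, where 1.15% of promoters hold them. These matches are descriptions of the sequence and not binding sites.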

How the data were processed

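GIST-T1 cells were profiled on 1-color Agilent arrays, 2 with the miR-335 mimic and 2 with the negative control, grouped per the labels. The authors deposited 1 scanner file per array with the intensity of each spot, made by Feature Extraction (10.7.3.1 per the file headers, 10.7 per the submitters' notes), with the processed intensity background-subtracted, detrended and not normalized between arrays. Flags for control spots, outliers, saturation and signal well above background came from the same deposited files, and no spot was saturated. Their series table holds the same intensity, rounded (within 0.497%), and was an alternative. The study's processing continued in other software, which was not used here.

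Flagged outlier spots (356 to 395 per array) were left out, repeat spots averaged on the log2 scale, and the 75th percentile of each array subtracted. Detection of a probe required the above-background flag on a share of 0.5 or more of its usable spots. The test was lmFit with eBayes (limma 3.58.1, R 4.3.3), with Benjamini-Hochberg adjustment over 20328 probes and a threshold of 0.05. The step was tested on simulated data. An exact permutation test of 2 against 2 cannot go below 0.333 (two-sided). The number of arrays limits the precision. The 14 alternatives were limma fits with other scalings, background corrections, filters, variance models, a block or arrays left out. The methods' t-test and the 1.5-fold criterion were applied beside them and are not among the 14. The members and lists were chosen with earlier results of these data known. Named were all members, called repair genes, the 3 largest rises and falls, the 3 genes nearest to BRCA1, and every upstream and neighbouring gene. Coordinates (hg19) and gene names were taken from the files, and sequences are from the files and RefSeq. The number of series columns matched to no sample was 0. Some genes of the lists are not reported here. Figures were drawn with matplotlib 3.10.9.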

Additional observations from a re-analysis of the deposited data

How the results depend on the processing

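BARD1 and BRIP1 stayed lower and XRCC2 and ATM higher than the control under all 14 alternatives, RAD51C stayed lower, and the other 4 members changed direction in 1 to 3 of them. Spike-in scaling called 9592 probes (9076 lower, 516 higher), 3 members and 25 repair genes, turned the member median to -0.14, and gave BRCA1 -0.079, BRCA2 -0.020, PALB2 -0.17 and RBBP8 -0.14. Normexp background called 1550 probes (758 lower, 792 higher), 2 members and 3 repair genes. The intensity trend called 3083 probes (1736 lower, 1347 higher), 3 members and 14 repair genes. The series table and the robust variance each called 1 member and 0 repair genes, FANCL being the one lost (adjusted p = 0.0512 and 0.0525 by limma). Without the filter on dim probes, limma called 0 probes, 0 members and 0 repair genes, with 3627 probes at an unadjusted p under 0.05. The replicate block also called 0 of each, FANCL included, with 4400 at an unadjusted p under 0.05, and gave BARD1 an adjusted p of 0.125 by limma; the replicate differences of the groups correlated at 0.0346 across probes, so the numbers do not pair the arrays. With 1 array left out, where the lone array is assumed to vary like the others, limma called 0 to 8 probes (0 lower, 0 to 8 higher), 0 members and 0 repair genes, with 3578 to 3907 at an unadjusted p under 0.05. The member median was then 0.046 to 0.10, the change of PALB2 -0.028 to 0.052 and that of RBBP8 -0.018 to 0.11. The methods' t-test called 4115 probes (2231 lower, 1884 higher), 3 members and 14 repair genes unadjusted, and 0 of each after Benjamini-Hochberg adjustment. The criterion of 1.5-fold was met by 494 probes above the control. The cause of these differences was not tested, except that fewer arrays enter when 1 is left out. BRIP1, BRCA2 and the dim ATM probes are the members nearest to background.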
